A study of Mus musculus with 9 samples.

Results

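The effect of a C-Myc retrovirus on gene expression in preneoplastic lung neuroendocrine cells was measured with 5 of the series' 9 arrays: the 2 arrays titled C-Myc-preSC and the 3 titled preSC. The other 4 arrays, 2 of L-Myc and 2 of N-Myc cells, entered the fit for its estimate of spread and were compared with the C-Myc arrays where stated. All groups were preSC, cells grown from the lungs of mice of mixed C57BL/6 and 129/Sv strain infected with Adeno-Cre, so that Rb, p53 and p130, all carried as conditional alleles, were to be recombined. The C-Myc group was preSC transduced with retro-C-Myc virus and the control group was preSC without it, both in RPMI1640 with 10% bovine growth serum. No group with an empty virus was analysed here, and neither the promoter of the Adeno-Cre virus nor the species of the C-Myc sequence is stated in the labels. The submitters list the molecule as polyA RNA for the preSC arrays and as total RNA for the C-Myc arrays. Values are log2 RMA intensities from Affymetrix mouse arrays, and a value is given per array because the 2 C-Myc arrays differed from each other at many genes.

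MYC, the protein the labels call C-Myc, is a transcription factor that pairs with MAX and binds E-boxes, short DNA motifs of which CACGTG is the best known form. It is known for raising the output of the nucleolus, where ribosomes are made, together with translation, nucleotide synthesis and glycolysis. In small cell lung cancer, a neuroendocrine tumour that almost always lacks RB and p53, a gene of the MYC family is often amplified, and tumours with high MYC are known for a weaker neuroendocrine programme than those with high MYCL.

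The cells were neuroendocrine by their markers. The defining genes Chga, Syp, Ncam1, Insm1 and Uchl1 each lay above the 40th percentile of its array in all 5 arrays. Their mean lay between 10.37 and 10.57 in preSC and between 10.42 and 10.57 in C-Myc cells. Among the markers of other cells that such a culture could hold, the defining genes Pecam1 and Cdh5 of endothelium, Ptprc of leukocytes, Col1a1 and Col3a1 of fibroblasts and Scgb1a1 of club cells were below that percentile in all 5 arrays. The whole lists were mixed: 6 of 10 endothelial, 5 of 11 leukocyte, 5 of 12 fibroblast and 10 of 20 club, alveolar and ciliated markers were below it in every array of the 5, and 4, 4, 3 and 8 were above it in every array. Vwf, Lyz1, Lyz2, Sftpc and Dcn of these lists reached 9.69 or more in at least 1 of the 5 arrays.

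The C-Myc arrays did not group by label. C-Myc 1 and C-Myc 2 lay at least 2-fold apart at 1417 of 12976 genes tested. C-Myc 1 differed that much from N-Myc 1 at 98 genes and from N-Myc 2 at 103, and C-Myc 2 from L-Myc 2 at only 17, against 1190 from L-Myc 1. Among the controls, preSC 1 and preSC 2 differed at 4 genes, and preSC 3 differed from them at 961 and 926. N-Myc 1 and N-Myc 2 differed at 5 genes, and this close pair also enters the spread that the fit estimates. The plot of genes apart between arrays gives these counts for each C-Myc array. Whether arrays this close share a culture or a line is not stated in the labels, so the p-values below measure the spread between these arrays, and the main counts are also given with preSC 1 and 2 averaged and counted once.

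**Figure D1:**
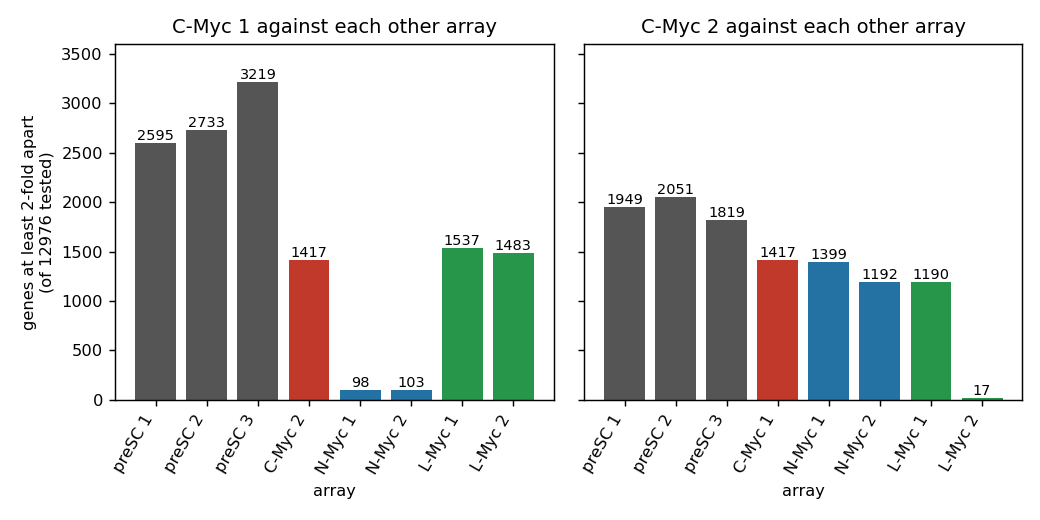
Number of genes (y axis) at least 2-fold apart between a C-Myc array and each other array (x axis), of 12976 tested. C-Myc 1 is closest to the N-Myc arrays (98 and 103 genes), C-Myc 2 is closest to L-Myc 2 (17 genes), and both are farthest from preSC (1819 to 3219 genes).

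Some measures of RNA and labelling also moved with the comparison. The mean of the 18S ribosomal RNA control probe sets was 12.88 to 13.91 in preSC and 8.83 to 9.0 in C-Myc arrays. The 5 prime minus 3 prime difference of the Dap spike-in was -3.66 to -3.40 in preSC and -1.56 to -1.51 in C-Myc, and that of Actb was -0.85 to -0.62 and -0.31 to -0.29. For the other spike-ins, that of Thr was -3.169 to -2.593 in preSC and -1.387 to -1.375 in C-Myc. Those of Lys (-1.657 to -1.313 against -1.423 to -1.334) and Phe (-1.684 to -0.951 against -1.165 to -0.824) overlapped between the groups. The 4 L-Myc and N-Myc arrays lay near the C-Myc arrays, at 8.22 to 9.35 for 18S, -1.680 to -1.605 for Dap and -0.26 to -0.20 for Actb. For 18S, Dap, Thr and Actb, the split was thus between preSC and every transduced array, with 18S higher in the arrays listed as polyA RNA. Between preSC and C-Myc these differences run with the group and with the labelled molecule, so group and labelling cannot be told apart. Their part in the gene differences was not tested. Array medians over all probe sets spanned 6.02 to 6.07.

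Because MYC binds E-boxes, the start regions of the genes that rose were searched for CACGTG, which reads the same on both strands and cannot overlap itself. RefSeq promoter windows of build GRCm38.p6, from 250 bases before to 50 after the start, were matched by symbol. At least 1 CACGTG stood in the windows of 2187 of 27025 genes (8.09%). Among genes tested, the share was 14.7% of 1050 that rose, 10.7% of 1435 that fell and 11.2% of 7957 that did not pass. Among the lists described below it varied, from 1 of 15 genes for small nucleolar RNA-protein complexes and nucleolar proteins to 11 of 37 for the small subunit processome and 13 of 32 for the lysosome, a list in which 1 gene rose and 10 fell. Of 75 named genes that rose and have a window, 11 held it within the last 160 bases before the start. Windows on 1 chromosome or with undetermined bases were not searched here, and any such gene still counts among the 75. The share over all genes was not counted for this stretch. Of the 11 genes, 5 are shown because they span the groups that rose: a cell cycle kinase, a glycolytic enzyme, a translation factor, a purine enzyme and a proteasome activator. Each stretch is the 160 bases ending just before the start, on the gene's strand, with CACGTG in capitals.
Cdk4 (chr10:127063375-127063534, + strand): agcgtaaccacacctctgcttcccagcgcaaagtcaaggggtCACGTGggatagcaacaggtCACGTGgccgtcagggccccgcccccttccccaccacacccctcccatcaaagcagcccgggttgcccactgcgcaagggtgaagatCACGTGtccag
Ldha (chr7:46845644-46845803, + strand): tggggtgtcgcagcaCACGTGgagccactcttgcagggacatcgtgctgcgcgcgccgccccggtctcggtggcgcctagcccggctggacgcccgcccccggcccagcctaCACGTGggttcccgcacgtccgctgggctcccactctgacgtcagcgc
Eif4e (chr3:138527108-138527267, + strand): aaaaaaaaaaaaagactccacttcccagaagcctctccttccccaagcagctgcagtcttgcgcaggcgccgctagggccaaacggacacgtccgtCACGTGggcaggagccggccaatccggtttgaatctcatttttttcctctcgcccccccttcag
Atic (chr1:71556996-71557155, + strand): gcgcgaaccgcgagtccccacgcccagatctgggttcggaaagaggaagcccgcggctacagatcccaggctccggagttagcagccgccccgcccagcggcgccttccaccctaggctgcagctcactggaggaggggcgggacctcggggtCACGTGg
Psme3 (chr11:101316053-101316212, + strand): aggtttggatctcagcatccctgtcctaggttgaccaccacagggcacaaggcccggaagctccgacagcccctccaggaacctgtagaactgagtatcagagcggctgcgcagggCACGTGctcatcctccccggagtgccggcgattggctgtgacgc
Position -1 is the base before the start. Cdk4 held 3 copies, beginning at -118, -98 and -11, and Ldha held 2, at -145 and -48. Eif4e held its copy at -64, Atic at -7 and Psme3 at -44. A match is a description of these letters and not of binding. Other genes that rose, such as Nhp2, Dkc1 and Bcat1, had no CACGTG in their window, which says nothing of the factor there.

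Over all genes, 3048 of 12976 (23.5%) passed the test between C-Myc and preSC cells, 1286 higher (9.91%) and 1762 lower (13.6%) in C-Myc cells. The test was limma's at a Benjamini-Hochberg adjusted p of 0.05, fitted on all 9 arrays. The median difference over all genes was -0.05. Counts per gene list below stand against the shares over all genes, 9.91% higher and 13.6% lower. In all 3048, neither C-Myc array overlapped the preSC arrays, while 3014 of the genes tested (23.2%) lay wholly higher and 3781 (29.1%) wholly lower without regard to the test. Of the genes called, 1386 differed at least 2-fold, 495 of them higher, and 1059 passed whichever of the 5 arrays was left out. With preSC 1 and 2 averaged, 1507 passed (657 higher, 850 lower). With the N-Myc arrays averaged as well, the genes left were Fosb and, at its brightest probe set, Mycn, both called higher. The split between directions depended on scaling and probe set: centring every array on the genes tested moved the median by 0.17 to 0.12 and gave 2064 higher and 1192 lower, and the second-brightest probe set of each gene gave 1400 higher and 848 lower.

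**Figure D2:**
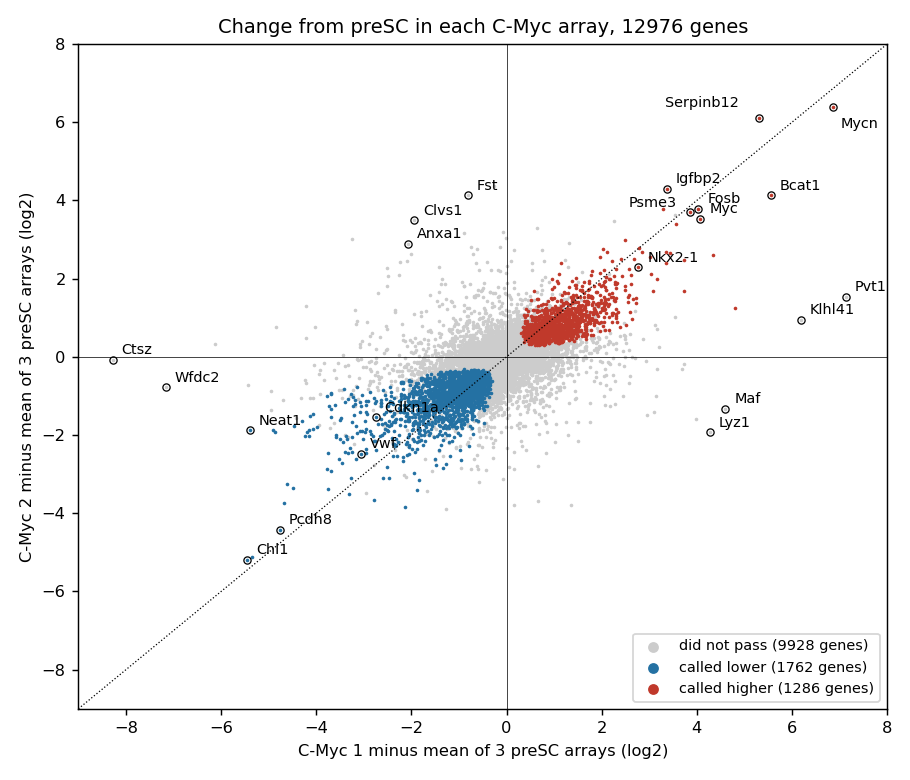
Each point is a gene, with its difference from the mean of the 3 preSC arrays in C-Myc 1 (x axis, log2) and in C-Myc 2 (y axis, log2). Genes called higher (red) or lower (blue) lie on the same side of the preSC mean in both arrays, 206 of them with the arrays at least 2-fold apart. Pvt1, Klhl41, Maf and Lyz1 stand out in C-Myc 1 and Fst, Anxa1 and Clvs1 in C-Myc 2.

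Myc RNA was high in both C-Myc arrays. Whether it came from the virus or from the cells' own gene was not tested. Myc read 6.5, 6.82 and 8.13 in preSC 1 to 3 and 11.22 and 10.68 in C-Myc 1 and 2, a rise of 3.80 (SE 0.61, adjusted p = 0.00717). The groups did not overlap, and preSC 3 was the highest control. The N-Myc arrays read as high, at 11.96 and 11.40, so this probe set does not single out the C-Myc label, while L-Myc 1 and 2 read 5.63 and 7.29. Pvt1, the noncoding gene beside Myc, read 5.84, 6.69 and 5.40 in preSC, 13.11 in C-Myc 1 and 7.51 in C-Myc 2. Its difference of 4.34 (SE 1.37) did not pass (adjusted p = 0.058), and C-Myc 1 alone was at the level of the N-Myc arrays, 13.58 and 13.63.

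The other MYC genes gave readings that depended on the probe set. The brightest Mycn probe set went from 6.37 to 6.89 in preSC to 13.54 and 13.08 in C-Myc cells, higher than in the N-Myc arrays (11.64 and 11.07), whereas its second probe set fell by 2.06 (adjusted p = 0.0222) and a further probe set differed by -0.40 (adjusted p = 0.168). For Mycl, the brightest probe set differed by -0.67 (adjusted p = 0.216), and the second rose by 2.02 (adjusted p = 0.0212), with 6.68 in C-Myc 1 and 8.52 in C-Myc 2. Neither gene is therefore given a direction here. Of 22 genes of the MYC network that were tested, 4 were called higher at their brightest probe set, Mycn among them, and 2 lower. None was called lower without C-Myc 1, preSC 1 or preSC 2. Max, the partner of MYC, differed by 0.16 (SE 0.19, adjusted p = 0.569), and Ruvbl2, an ATPase that MYC recruits, rose by 1.56 (SE 0.18, adjusted p = 0.00325).

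Genes of ribosome production were higher in C-Myc cells. Of 22 genes for small nucleolar RNA-protein complexes and nucleolar proteins, 13 rose and 1 fell, with a median difference of 0.92. Of 44 genes of the small subunit processome, which builds the 40S precursor, 25 rose and none fell (median 0.77). Of 43 large subunit assembly genes, 25 rose and none fell (median 0.97). These medians stand against -0.05 over all genes, of which 9.91% rose. They were larger in C-Myc 1 (1.08, 0.94 and 1.20) than in C-Myc 2 (0.57, 0.53 and 0.66). With preSC 1 and 2 averaged, 9, 10 and 16 of these genes rose, and without C-Myc 1, 8, 6 and 15. Without preSC 1 the counts were 9, 9 and 16, and without preSC 2, 8, 7 and 16.

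Among the proteins that guide RNA modification, Nhp2, a subunit of the pseudouridine-forming complexes, read 10.39, 10.05 and 10.31 in preSC and 12.72 and 12.05 in C-Myc, a rise of 2.14 (SE 0.27, adjusted p = 0.00387). Dkc1, the pseudouridine synthase itself, read 9.90, 9.96 and 9.87 against 12.15 and 11.44, and rose by 1.88 (SE 0.21, adjusted p = 0.00325). Every C-Myc value of both genes lay more than 1 log2 unit above every preSC value. Fbl, the methyltransferase fibrillarin, read 11.16, 11.03 and 11.17 in preSC and 12.66 and 12.21 in C-Myc, and rose by 1.31 (SE 0.18, adjusted p = 0.00503). Nop56, its partner in the methylation complex, rose by 1.12 (SE 0.28, adjusted p = 0.0284), which passed in 1 of 5 fits that left out an array. For Nop56, C-Myc 2 at 11.43 lay closer to the preSC range of 10.64 to 10.92 than to C-Myc 1 at 12.46. Ncl, the abundant nucleolar protein nucleolin, rose by 1.18 (SE 0.20, adjusted p = 0.00809). Npm1, nucleophosmin, differed by 0.92 and did not pass (SE 0.39, adjusted p = 0.13). For Npm1, C-Myc 2 at 12.67 was level with preSC 1 and 2 at 12.60 and 12.58, while preSC 3 read 11.62 and C-Myc 1 13.70.

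Several assembly factors also read higher in C-Myc 1 than in C-Myc 2. Ddx21, a nucleolar RNA helicase, read 8.92, 8.93 and 8.98 in preSC and 11.07 and 10.26 in C-Myc. Gnl3, the nucleolar GTPase nucleostemin, read 9.64, 9.57 and 9.57 against 11.65 and 10.79. Wdr43, of the processome, read 8.66, 8.55 and 8.63 against 10.58 and 10.18. In these genes the preSC arrays lay close together and C-Myc 1 exceeded C-Myc 2, and the rises were 1.72, 1.62 and 1.77 (adjusted p = 0.00492, 0.00541 and 0.00412). Nol11, also of the processome, had the C-Myc arrays in the other order, 10.14 and 10.26, and rose by 1.65 (SE 0.28, adjusted p = 0.00889). Rsl1d1 rose by 1.92 (SE 0.18, adjusted p = 0.00238) and Nle1, a large subunit factor, by 1.98 (SE 0.37, adjusted p = 0.0111). Among 35 genes of RNA polymerases I and III, which transcribe ribosomal and transfer RNA, 13 rose and none fell (median 0.51, with 0.66 in C-Myc 1 and 0.25 in C-Myc 2), and 6 rose without C-Myc 1 and 7 without preSC 2. Polr1a, the largest subunit of polymerase I, rose by 1.31 (SE 0.27, adjusted p = 0.016), and Polr1e, another of its subunits, by 1.68 (SE 0.42, adjusted p = 0.0283). They passed in 3 and 2 of 5 fits that left out an array.

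**Figure D3:**
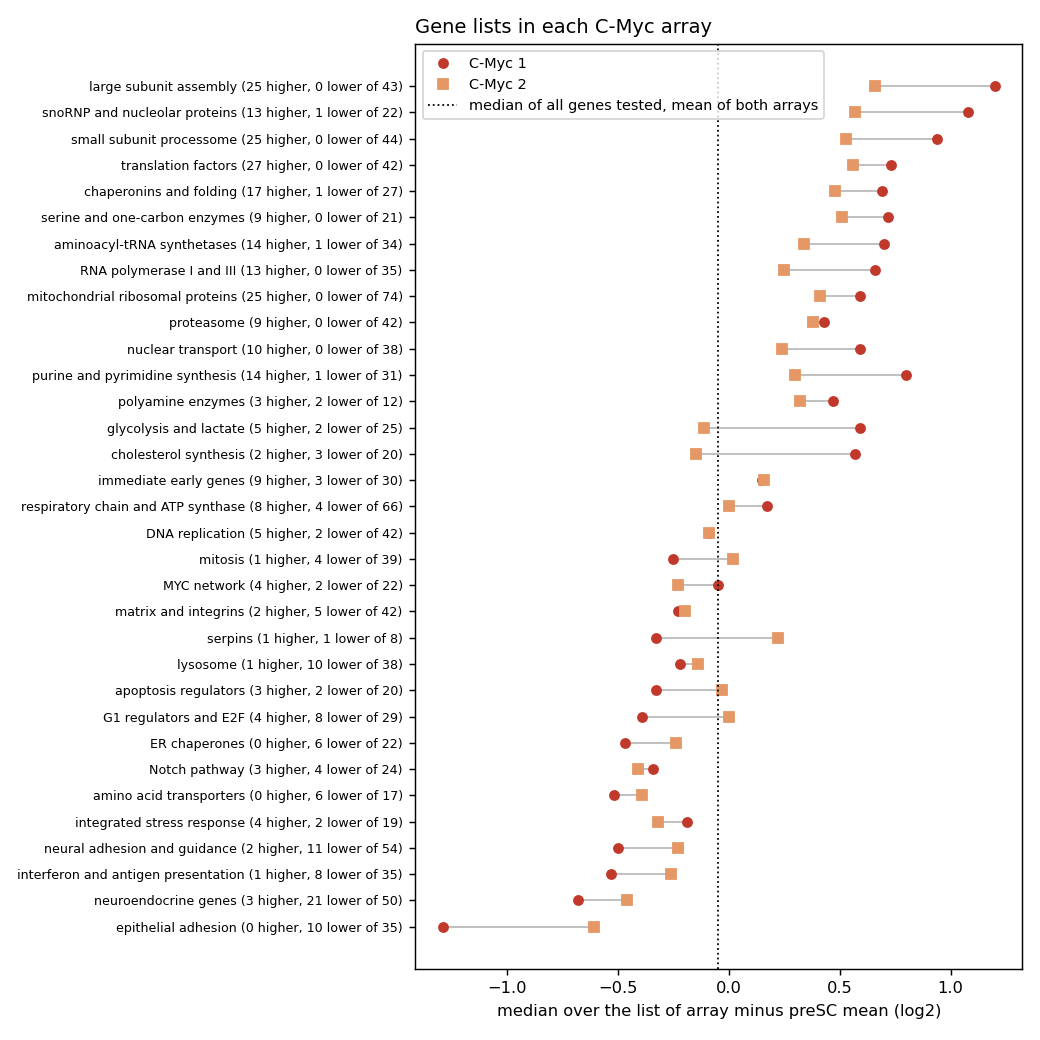
Median difference from the preSC mean (x axis, log2) over each gene list (y axis, with its calls in brackets) in C-Myc 1 (circles) and C-Myc 2 (squares), with the median of all genes tested as a dotted line at -0.05. Ribosome assembly lists lie at 0.53 to 1.20, while epithelial adhesion lies at -1.29 in C-Myc 1 and -0.61 in C-Myc 2.

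Translation genes were higher as well. Of 42 translation factors, 27 rose and none fell (median 0.65), and of 34 aminoacyl-tRNA synthetases and their partners, 14 rose and 1 fell (median 0.53). With preSC 1 and 2 averaged, 12 and 7 rose. The counts were 13 and 4 without C-Myc 1, 13 and 8 without preSC 1, and 12 and 3 without preSC 2. Eif4e, the cap-binding protein whose promoter is shown above, read 11.09, 10.98 and 11.19 in preSC and 12.45 and 12.18 in C-Myc, a rise of 1.23 (SE 0.15, adjusted p = 0.00348). Eif1a, which acts in start site scanning, read 8.89, 9.01 and 9.49 against 11.19 and 11.08 and rose by 2.00 (SE 0.30, adjusted p = 0.00602). In both genes the C-Myc arrays lay close together and clear of preSC. Aimp2, a scaffold of the synthetase complex, rose by 1.33 (SE 0.19, adjusted p = 0.00555). Of 74 mitochondrial ribosomal protein genes, 25 rose and none fell (median 0.46). Mrpl50 rose by 1.91 (SE 0.25, adjusted p = 0.00415) and Mrpl12 by 1.26 (SE 0.19, adjusted p = 0.00598). The count of mitochondrial ribosomal proteins that rose was 6 without C-Myc 1, 15 without preSC 1 and 10 without preSC 2.

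Among metabolic enzymes, those that feed nucleotide synthesis were higher most often. Of 31 purine and pyrimidine genes, 14 rose and 1 fell (median 0.39), and of 21 serine and one-carbon genes, 9 rose and none fell (median 0.60). Without C-Myc 1, 8 and 7 rose, and without preSC 2, 9 and 6. Atic, which closes the purine ring, read 9.56, 9.71 and 9.94 in preSC and 11.89 and 11.33 in C-Myc, a rise of 1.87 (SE 0.22, adjusted p = 0.00331). Shmt1, which moves a carbon from serine to folate, read 7.12, 7.25 and 7.80 against 10.56 and 9.39 and rose by 2.59 (SE 0.38, adjusted p = 0.00553). Phgdh, the first enzyme of serine synthesis, rose by 1.40 (SE 0.25, adjusted p = 0.00962). Cad, the first enzyme of pyrimidine synthesis and a well known MYC target, did not pass: preSC read 8.78, 8.61 and 8.64, C-Myc 1 read 9.86 and C-Myc 2 read 8.01. The C-Myc arrays thus lay on opposite sides of preSC at this brightest probe set of Cad (difference 0.26, SE 0.49, adjusted p = 0.736). At its second probe set, C-Myc 2 at 8.03 lay within the preSC range of 7.85 to 8.33, and C-Myc 1 read 9.88.

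Bcat1, the cytosolic branched-chain aminotransferase, had the largest rise that passed outside Mycn and Serpinb12. It read 5.20, 5.33 and 3.79 in preSC and 10.34 and 8.92 in C-Myc, a rise of 4.85 (SE 0.54, adjusted p = 0.00325). Its other probe sets rose by 3.82 and 1.97 (adjusted p = 0.000937 and 0.00117). These come from a limma fit over all probe sets, which gave 0.00104 for the brightest. Odc1, ornithine decarboxylase of the polyamine pathway, read 11.02, 10.94 and 10.84 against 12.28 and 11.72 and rose by 1.07 (SE 0.19, adjusted p = 0.00931). Of 12 polyamine genes, 3 rose (25.0%) and 2 fell (16.7%), against 9.91% and 13.6% of all genes. Of 17 amino acid transporter genes, none rose and 6 fell (median -0.33), but at the second-brightest probe sets 2 rose and 1 fell, and 1 fell without preSC 2 and 3 without C-Myc 1 or preSC 1. Slc36a1, a lysosomal amino acid transporter, fell by 1.01 (SE 0.15, adjusted p = 0.00642).

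Glycolysis genes differed between the C-Myc arrays. Of 25 tested, 5 rose and 2 fell, with a median of 0.59 in C-Myc 1 and -0.11 in C-Myc 2, and 7 were at least 2-fold higher in C-Myc 1. Without C-Myc 2, 11 rose and none fell, and without preSC 1 or preSC 2, 3 rose and none fell. Pfkl, liver phosphofructokinase, read 7.43, 6.87 and 7.28 in preSC and 10.27 and 8.87 in C-Myc, a rise of 2.38 (SE 0.39, adjusted p = 0.00796). Ldha, lactate dehydrogenase A, read 10.70, 10.39 and 10.63 against 12.21 and 11.43 and rose by 1.25 (SE 0.23, adjusted p = 0.0118). Pkm, pyruvate kinase, had the other order, with 12.33 in C-Myc 1 and 12.61 in C-Myc 2 against 10.61 to 10.84 in preSC (1.77, SE 0.15, adjusted p = 0.00202). Of 66 respiratory chain and ATP synthase genes, 8 rose (12.1%) and 4 fell (6.06%), with a median of 0.03, against 9.91% and 13.6% of all genes. Without an array, 4 (C-Myc 1 or preSC 2) to 12 (C-Myc 2) of them rose, and 2 (preSC 2) to 8 (C-Myc 2) fell. Cholesterol synthesis genes had a median of 0.57 in C-Myc 1 and -0.15 in C-Myc 2 over 20 genes (76.9% of those listed), with 1 at least 2-fold higher in C-Myc 1. Of these 20, 2 rose and 3 fell, while 10 rose and 2 fell without C-Myc 2 and none rose with any other of the 5 arrays left out.

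Chaperones of the cytosol and mitochondria were higher and those of the endoplasmic reticulum were not. Of 27 chaperonin and folding genes, 17 rose and 1 fell (median 0.61), and 8 rose without C-Myc 1, 10 without preSC 1 and 9 without preSC 2. Fkbp4, a co-chaperone of HSP90, read 9.76, 9.76 and 10.13 in preSC and 12.18 and 11.63 in C-Myc (2.02, SE 0.21, adjusted p = 0.00302), although its second probe set differed by 0.18 (adjusted p = 0.454). Hspe1, the mitochondrial chaperonin lid, rose by 1.48 (SE 0.27, adjusted p = 0.0111). Of 22 endoplasmic reticulum genes, none rose and 6 fell (median -0.32), among them Dnajc3, an inhibitor of the kinase PERK, which fell by 1.14 (SE 0.14, adjusted p = 0.00346). That direction was tied to the probe set, since 5 rose and 1 fell at the second-brightest ones, and 1 fell without C-Myc 1 and 3 without any 1 of the preSC arrays. Of 42 proteasome genes, 9 rose and none fell (median 0.42), with 4 without C-Myc 1, preSC 1 or preSC 2 and 24 after centring. Psme3, the activator PA28 gamma, read 6.70, 6.59 and 7.17 against 10.68 and 10.51, a rise of 3.78 (SE 0.27, adjusted p = 0.00108), with 1.51 at its second probe set (adjusted p = 0.00629). Of 38 nuclear transport genes, 10 rose and none fell (median 0.41), while 3 rose and 1 fell without C-Myc 1, 4 rose without preSC 1 or preSC 2, and 18 rose without C-Myc 2.

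Immediate early genes, which serum, handling and growth signals switch on within minutes, gave some of the steadiest differences. Fosb read 4.23, 4.16 and 4.16 in preSC and 8.21 and 7.97 in C-Myc, a rise of 3.91 (SE 0.17, adjusted p = 0.000183). Fos read 7.73, 7.74 and 8.13 against 11.44 and 11.25, a rise of 3.48 (SE 0.19, adjusted p = 0.000727). All L-Myc and N-Myc arrays were high too, Fosb at 7.70 to 9.09 and Fos at 10.85 to 12.13. Of 30 genes in the list, 9 rose and 3 fell, and 5 rose without C-Myc 1 or preSC 2 and 4 without preSC 1. Fosl2, another FOS family member, went the other way and fell by 2.04 (SE 0.18, adjusted p = 0.00202), with a difference of -0.01 at its second probe set (adjusted p = 0.962).

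Few genes of the cell division programme passed. Of 42 DNA replication genes, 5 rose (11.9%) and 2 fell (4.76%), with a median of -0.11. Of 39 mitosis genes, 1 rose (2.56%) and 4 fell (10.3%), with a median of -0.14. Over all genes 9.91% rose and 13.6% fell. With an array left out, 1 (preSC 2) to 4 replication genes rose and 0 (preSC 1 or preSC 2) to 4 fell, and 0 (C-Myc 1) to 8 (C-Myc 2) mitosis genes fell. Among 29 G1 regulators and E2F genes, 4 rose and 8 fell, and 0 (preSC 2) to 3 rose and 3 (preSC 2) to 11 (C-Myc 2) fell with an array left out. Cdk4, a kinase that starts G1 progression, read 11.54, 11.25 and 11.27 in preSC and 12.08 and 12.09 in C-Myc, a rise of 0.73 (SE 0.15, adjusted p = 0.0162). Its other probe sets rose by 0.89 and 1.01 (adjusted p = 0.0068 and 0.00477, in a fit over all probe sets that gave 0.0118 for the brightest). Cdkn1a, the inhibitor p21, read 12.14, 12.05 and 11 against 8.97 and 10.19 and fell by 2.15 (SE 0.49, adjusted p = 0.0205). The groups did not overlap, but preSC 3 and C-Myc 2 were the closest arrays across them, and the fall passed in 2 of 5 fits that left out an array. Cdkn2b, the inhibitor p15, fell by 1.49 (SE 0.29, adjusted p = 0.0126).

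Rb1, 1 of the genes carried as a conditional allele, read 12.17, 12.34 and 11.83 in preSC and 10.49 and 10.73 in C-Myc, with a difference of -1.5 (SE 0.26, adjusted p = 0.00889). Where its probe set lies relative to the deleted part was not analysed here, so the level does not check the deletion. Rbl2, the gene for p130, differed by -0.43 (SE 0.23, adjusted p = 0.199), and Trp53 was not analysed here. Of 20 apoptosis genes, 3 rose and 2 fell, while at the second-brightest probe sets 6 of 15 tested rose and 1 fell. Bid, which links death receptors to mitochondria, read 6.15, 6.23 and 5.91 against 8.20 and 8.15, a rise of 2.08 (SE 0.15, adjusted p = 0.00108). Bcl2l11, the death-promoting protein BIM, fell by 1.35 at its brightest probe set (SE 0.19, adjusted p = 0.00513). Further probe sets differed by -0.90, -0.96 and 0.01 (adjusted p = 0.0327, 0.0344 and 0.965). The dimmest rose by 1.33 (adjusted p = 0.0117), from a preSC mean of 4.97 to a C-Myc mean of 6.30. The direction of Bcl2l11 thus depended on the probe set.

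Neuroendocrine genes fell more often than they rose. Of 50 tested, 3 rose and 21 fell, with a median of -0.65 (-0.68 in C-Myc 1, -0.46 in C-Myc 2). The falls numbered 11 without C-Myc 1 or preSC 2, 13 without preSC 1, 12 with preSC 1 and 2 averaged and 27 without C-Myc 2. The direction of the whole list depended on the probe set: at the second-brightest ones 3 rose and 4 fell and the median lay 0.21 above that of all genes. Chga, the granule protein chromogranin A, read 10.87, 10.86 and 11.33 in preSC and 9.43 and 9.96 in C-Myc, a difference of -1.32 (SE 0.21, adjusted p = 0.00717). Scg2, secretogranin II, read 11.92, 12.07 and 11.66 against 9.71 and 9.22 and fell by 2.42 (SE 0.40, adjusted p = 0.00809). Ncam1, a neural adhesion molecule used to diagnose small cell lung cancer, read 11.38, 11.38 and 10.70 against 9.45 and 9.66 and fell by 1.60 (SE 0.30, adjusted p = 0.0119). In all of these the C-Myc values stayed well above the array median near 6.

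Other members of the list were not lower. Syp, the vesicle protein synaptophysin, read 7.87, 7.39 and 7.91 in preSC and 8.94 and 8.87 in C-Myc, a rise of 1.18 (SE 0.18, adjusted p = 0.00624). Nkx2-1, the lung lineage transcription factor, read 5.73, 6.06 and 5.70 against 8.61 and 8.12, a rise of 2.53 (SE 0.21, adjusted p = 0.00143). Insm1, a zinc finger factor of neuroendocrine cells, differed by 0.55 and did not pass (SE 0.30, adjusted p = 0.222), with 10.90 to 11.67 in preSC and 11.64 and 11.92 in C-Myc. The preSC arrays read Nkx2-1 just below the array median and every transduced array read it above 8. Of 24 Notch pathway genes, 3 rose (12.5%) and 4 fell (16.7%), near the 9.91% and 13.6% of all genes. Jag1, a Notch ligand, fell by 2.17 (SE 0.26, adjusted p = 0.00348), Lfng, which glycosylates the receptors, rose by 1.46 (SE 0.21, adjusted p = 0.00513), and Hes1, a Notch target, differed by -0.20 (SE 0.31, adjusted p = 0.67).

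**Figure D4:**
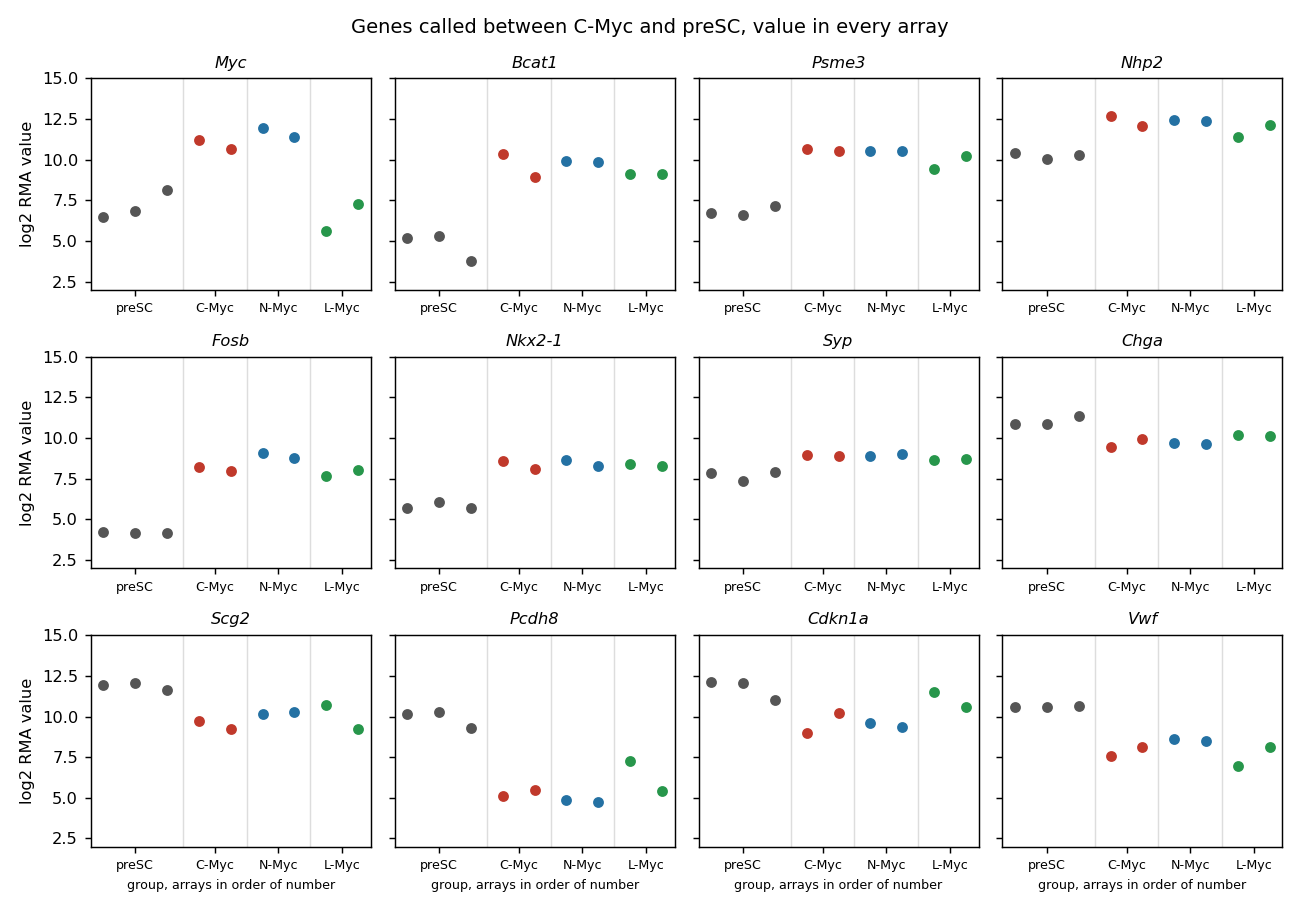
Log2 RMA values (y axis) of 12 genes called between C-Myc (red) and preSC (grey) in every array, with N-Myc (blue) and L-Myc (green) beside them, each dot an array. Myc is low in the L-Myc arrays (5.63 and 7.29), while Bcat1, Fosb, Nkx2-1 and Syp are above preSC in all 6 transduced arrays.

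With predicted genes and unnamed clones left aside, the largest falls were in Chl1 and Pcdh8, both of the neural adhesion list. AI467606, a gene known only by an accession-like symbol, fell by 5.24 (SE 0.35, adjusted p = 0.00108). Chl1, a cell adhesion molecule close to L1, read 9.95, 10.04 and 7.77 in preSC and 3.80 and 4.07 in C-Myc, a difference of -5.32 (SE 1.16, adjusted p = 0.018). The fall of Chl1 passed in 2 of 5 fits that left out an array, and L-Myc 1 read 9.63. Pcdh8, a protocadherin, read 10.16, 10.28 and 9.29 against 5.14 and 5.49 and fell by 4.59 (SE 0.53, adjusted p = 0.00338), with a difference of -4.35 at its second probe set (adjusted p = 0.00121). Both went from a high level to one below the array median. Nrcam, also of the L1 family, fell by 2.04 (SE 0.23, adjusted p = 0.00325) and differed by -1.84, -2.37 and -1.08 at its other probe sets (adjusted p = 0.00387, 0.00156 and 0.0271). Tnr, the matrix protein tenascin-R, fell by 3.42 (SE 0.31, adjusted p = 0.00209). Of the 54 genes in the list, 2 rose and 11 fell (median -0.38), so most did not pass, and 17 fell without preSC 3.

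Epithelial genes had the lowest median of the lists shown in the plot of list medians, -1.11, with -1.29 in C-Myc 1 and -0.61 in C-Myc 2. The share that fell was 28.6%, against 13.6% of all genes. Of 35 tested, none rose and 10 fell, with 4 falls without C-Myc 1 and 6 without preSC 2, and 10 were at least 2-fold lower in C-Myc 1 than in C-Myc 2. Cdh1, E-cadherin, read 12.62, 12.72 and 13.12 in preSC and 10.78 and 11.19 in C-Myc, a difference of -1.84 (SE 0.50, adjusted p = 0.0369) that passed in none of the fits that left out an array. Spint2, an inhibitor of epithelial serine proteases, read 12.58, 12.61 and 12.95 against 11.20 and 11.31 and fell by 1.46 (SE 0.19, adjusted p = 0.00409). Grhl1, a factor of epithelial barriers, fell by 1.52 (SE 0.28, adjusted p = 0.0112). Both E-cadherin and Spint2 remained among the brighter genes of the C-Myc arrays. Vim, the mesenchymal marker vimentin, did not pass the filter on low values. Among 42 matrix and integrin genes, 2 rose (4.76%) and 5 fell (11.9%), against 9.91% and 13.6% of all genes. Without preSC 1 or preSC 2, 3 fell. Itgb1, the shared beta 1 integrin, rose by 1.63 (SE 0.17, adjusted p = 0.00314), and by 1.17 and 1.39 at its next probe sets (adjusted p = 0.0026 and 0.00228).

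Interferon and antigen presentation genes were lower where they passed, apart from 1 that rose. Of 35 tested, 8 fell (22.9%, against 13.6% of all genes), with a median of -0.44. The falls numbered 2 without preSC 1, 3 without preSC 2 or C-Myc 1, 5 without preSC 3 and 13 without C-Myc 2. B2m, the light chain of MHC class I, read 10.20, 10.24 and 8.88 in preSC and 8.50 and 7.03 in C-Myc and fell by 2.01 (SE 0.58, adjusted p = 0.0443), which passed in 2 of 5 fits that left out an array. Psmb9, a subunit of the immunoproteasome, read 8.70, 8.77 and 9.40 against 5.87 and 7.80 and fell by 2.12 (SE 0.54, adjusted p = 0.029), which passed in 1 of 5. preSC 3 was the lowest control for B2m and the highest for Psmb9; C-Myc 2 was the lower C-Myc array for B2m and the higher for Psmb9. Among leukocyte markers, the list's mean level was 5.06 to 5.43 in preSC and 5.23 to 5.73 in C-Myc, none of the 5 tested passed, and Ptprc was near the bottom of the scale (3.57 to 3.87). Of 38 lysosomal genes, 1 rose and 10 fell (median -0.18), but at the second-brightest probe sets 5 rose and none fell, and 5 fell without C-Myc 1, preSC 1 or preSC 2. Npc1, the lysosomal cholesterol exporter, fell by 1.44 (SE 0.25, adjusted p = 0.00925).

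Of the markers for other cells, Vwf, known from endothelium, read 10.57, 10.60 and 10.66 in preSC and 7.55 and 8.13 in C-Myc, a difference of -2.77 (SE 0.33, adjusted p = 0.00348). The endothelial genes Pecam1 and Cdh5 read 3.69 to 4.87 in these arrays and the list's mean was 5.43 to 5.69 in preSC and 5.06 to 5.19 in C-Myc. Of the 10 club, alveolar and ciliated markers tested, none rose and Rsph1 and Ager fell, by 1.25 and 1.01 (adjusted p = 0.0166 and 0.0104). The list's mean was 5.42 to 5.86 in preSC and 5.44 to 5.93 in C-Myc. None of 7 tested fibroblast markers passed (mean 5.20 to 5.32 and 5.02 to 5.43). Dcn, the matrix protein decorin, read 6.59, 6.86 and 9.32 in preSC, 5.33 in C-Myc 1 and 9.69 in C-Myc 2, so that it parted the C-Myc arrays and was high in preSC 3. In bulk cultures, fewer cells of a type and less RNA per cell cannot be told apart.

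A few large rises rested on uneven controls or arrays. Serpinb12, a serine protease inhibitor of epithelia, read 4.84, 5.05 and 8.54 in preSC and 11.46 and 12.26 in C-Myc, a rise of 5.71 (SE 1.64, adjusted p = 0.0427) that passed in 1 of 5 fits that left out an array. Igfbp2, which binds insulin-like growth factors, read 4.60, 4.73 and 4.43 against 7.95 and 8.89 and rose by 3.83 (SE 1.10, adjusted p = 0.0423). Cdh11, a mesenchymal cadherin, read 3.59, 3.54 and 3.52 against 6.83 and 7.34 and rose by 3.53 (SE 0.87, adjusted p = 0.0261). For Igfbp2 and Cdh11 the 5 arrays separate widely, yet neither passed in any fit with an array left out, and L-Myc 1 stayed at the preSC level for both (4.67 and 3.39) while L-Myc 2 did not (9.17 and 6.98).

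Genes on which the 2 C-Myc arrays part are described by level only, since a single array has no replicate. C-Myc 1 was at least 2-fold above C-Myc 2 at 582 genes (4.49%) and below it at 835 (6.43%). C-Myc 1 was at least 2-fold above the preSC mean at 1009 genes and below it at 1696, and C-Myc 2 at 577 and 1172, with 56 genes on opposite sides. Lyz2, lysozyme of myeloid and alveolar cells, read 12.31 in C-Myc 1 and 6.76 in C-Myc 2, with 9.31, 10.09 and 5.61 in preSC. Maf, a leucine zipper factor, read 11.42 and 5.49, with 7.98, 8.63 and 3.85 in preSC. For these genes C-Myc 2 and preSC 3 were the low arrays of the 5. Klhl41, known from muscle, read 10.33 in C-Myc 1 and 5.08 in C-Myc 2, against 3.97 to 4.25 in preSC, and Sftpc, the alveolar surfactant protein C, read 10.68 and 6.17 against 6.06 to 8.42.

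In the other direction, Ctsz, the lysosomal protease cathepsin Z, read 3.69 in C-Myc 1 and 11.90 in C-Myc 2, with 11.81 to 12.27 in preSC and 4.20 and 3.97 in the N-Myc arrays. Wfdc2, a secreted epithelial protein, read 4.48 and 10.87, with 10.98 to 12.74 in preSC and 4.67 and 4.70 in N-Myc. These were close to the floor of the scale in C-Myc 1 and at the preSC level in C-Myc 2. Anxa1, annexin A1, read 4.92 and 9.87, with 4.61, 4.73 and 11.61 in preSC, so that preSC 3 alone among the controls resembled C-Myc 2. Fst, the activin antagonist follistatin, read 4.26 and 9.21 and was 4.95 to 5.28 in preSC. Over all 582 genes higher in C-Myc 1, both N-Myc arrays were nearer to C-Myc 1 in 518 and L-Myc 2 was nearer to C-Myc 2 in 573. Over the 835 higher in C-Myc 2, these counts were 735 and 829, and preSC 3 was nearer to C-Myc 2 in 723 and preSC 1 in 577.

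**Figure D5:**
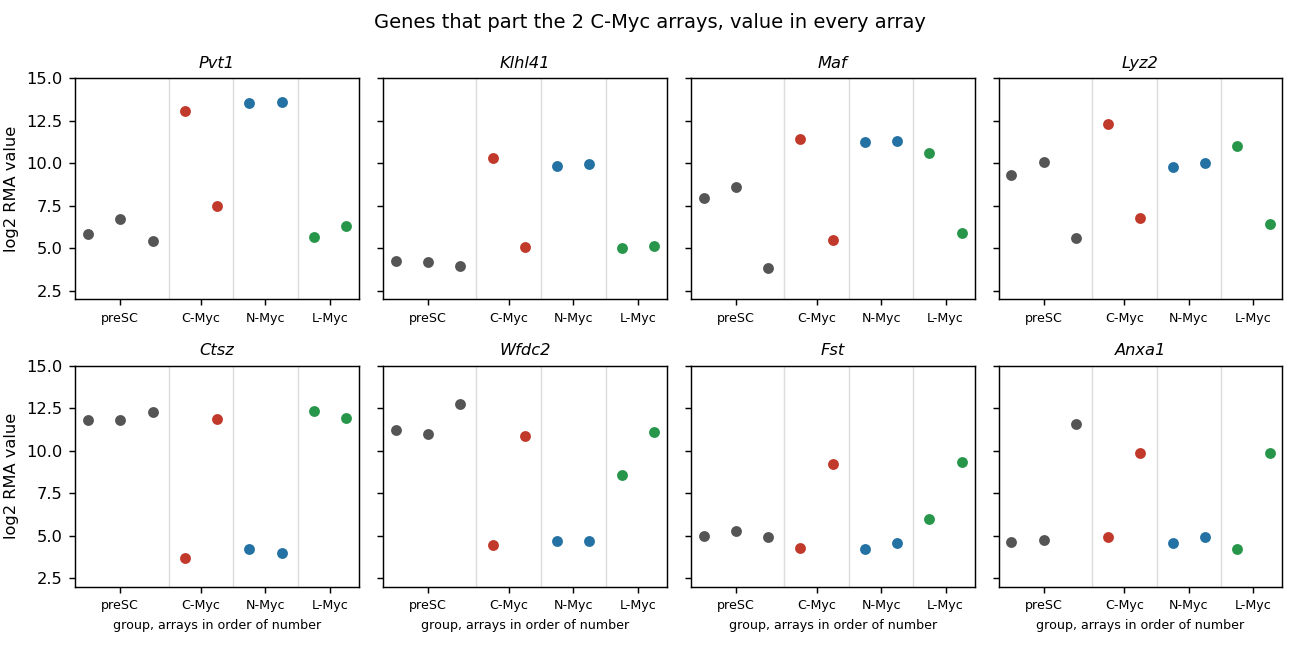
Log2 RMA values (y axis) of 8 genes on which C-Myc 1 and C-Myc 2 (red) part, in every array with preSC (grey), N-Myc (blue) and L-Myc (green), each dot an array. In each gene the N-Myc arrays lie nearer to C-Myc 1 and L-Myc 2 nearer to C-Myc 2, as for Ctsz, where C-Myc 1 reads 3.69 beside N-Myc at 4.20 and 3.97, and C-Myc 2 reads 11.90 beside L-Myc 2 at 11.94.

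Direct comparisons with the other MYC proteins called no gene. C-Myc against N-Myc gave 0 of 12976 (0.0%) by limma, with 541 genes at an unadjusted p under 0.05, and C-Myc against L-Myc gave 0 (0.0%), with 602. Leaving out C-Myc 1 gave 418 calls against N-Myc, and leaving out C-Myc 2 gave 625 against L-Myc, so these counts rest on which C-Myc array is used. The closest pairs show what still differed, with no test. The genes named here were chosen after their values were seen. C-Myc 2 exceeded L-Myc 2 at 8 genes and was below it at 9. The widest of these was Myc, at 10.68 against 7.29, followed by 2010204K13Rik at 8.60 against 6.59. Chl1 read 4.07 against 5.5, and Neurog3, a neurogenic transcription factor, 8.34 against 9.50.

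C-Myc 1 differed at least 2-fold in the same direction from both N-Myc arrays at 63 genes, 26 higher and 37 lower. Slc6a15, a neuronal amino acid transporter, read 7.64 in C-Myc 1 and 5.34 and 5.39 in the N-Myc arrays, with 10.35 in C-Myc 2. The epithelial keratins were lower in C-Myc 1: Krt8 read 11.06 against 12.37 and 12.38, and Krt18 read 9.99 against 11.44 and 11.29. C-Myc 2 read 12.41 for Krt8 and 11.39 for Krt18, at the N-Myc level. Dsp, the desmosome protein desmoplakin, read 9.15 against 10.49 and 10.32. Igfbp2 read 7.95 against 6.36 and 6.26. None of these passed in the test of C-Myc against N-Myc.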

How the data were processed

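The authors deposited log2 values for 45101 probe sets, 1 per array, produced by RMA (package affy, R 3.0.1), per the submitters' processing notes. RMA gives all arrays the same distribution, so a shift shared by most transcripts would not be seen. Groups came from the sample titles. Of the probe sets, 34945 named 1 gene through the platform annotation, 932 gave several symbols and 9211 none. Each of 18193 genes was represented by its brightest probe set over the 9 arrays, and 12976 were tested, being above the 40th percentile of an array in at least 2 arrays. Group means were fitted to all 9 arrays with limma 3.58.1 (R 4.3.3, two-sided, Benjamini-Hochberg adjusted over the genes tested, 5 residual and 2.44 prior degrees of freedom). Differences are between means of log2 values, with the fit's standard error (SE). Adjusted p-values of a gene's further probe sets come from a separate limma fit over all probe sets with 1 gene that passed the filter. They cannot be set directly against those of the brightest probe sets. With 2 arrays against 3, an exact permutation test could not go below 0.1, and the number of arrays sets the precision. The fit was also run on simulated arrays drawn independently of each other, which does not cover near-identical arrays such as those seen here. The comparison, the 37 gene lists and the rule for named genes were chosen with earlier results of these data known. The rule takes the 15 largest rises and 15 largest falls that passed with arrays not overlapping, predicted genes and unnamed clones left out, up to 4 genes that passed per list (2 values where none did), a fixed set of MYC, nucleolar, cell cycle and lineage genes, and 10 genes each way between the C-Myc arrays, and the text gives a part. Other probe sets, scalings, filters and array subsets were tried as alternatives. Trp53 was not analysed here.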

Additional observations from a re-analysis of the deposited data

How the results depend on the processing

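The count of genes called between C-Myc and preSC was 1827 when only these groups were fitted, 1507 with preSC 1 and 2 averaged, and 2 (Mycn and Fosb) with the N-Myc arrays averaged too, where 3402 genes were at an unadjusted p under 0.05. Leaving out 1 array at a time gave 1360 (without preSC 2) to 3486 (without C-Myc 2), with 1583 without preSC 1 and 1573 without C-Myc 1. A replicate block gave 2389 (954 higher, 1435 lower). Deviations of preSC and C-Myc arrays of the same number correlated at 0.401 for number 1 and -0.367 for number 2. Deviations of 2 C-Myc arrays from their own mean are always opposite, and preSC 1 and 2 are nearly the same. The opposite signs therefore cannot show whether arrays of a number share more than that number. Centring gave 63.4% of calls higher, the second-brightest probe set 62.3% and the mean over probe sets 53.8%, against 42.2%. C-Myc against N-Myc ranged from 0 to 418 calls (without C-Myc 1) and C-Myc against L-Myc from 0 to 625 (without C-Myc 2), with 2 without L-Myc 2, and both stayed at 0 with a replicate block, also with crossed numbers. The other alternatives left every one of these counts within 1.5 times. Among the 192 named genes, 158 no longer passed with near-identical arrays averaged and 51 with preSC 1 and 2 averaged. The direction turned at the second-brightest probe set for Mycn (-2.06), Mycl (2.02), Rbl1 (1.26), Neat1 (0.25), Dscaml1 (0.23), Farsa (-0.03), Azin1 (0.02), Eif2ak1 (-0.47), Hspa4 (-0.90), Psmd7 (-0.01), Pold1 (0.10), Rpa1 (0.15), Kif23 (0.67), Cdc20 (0.07), Mcl1 (-0.38), Ncstn (-0.40), Itgav (0.31), Fdft1 (0.42) and Psap (0.39), and with the mean over probe sets for Azin1 (0.41), Hspa4 (-0.13) and Fdft1 (0.01), and the cause was not tested. Dim genes near the floor of the scale have compressed differences.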

Other observations

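Several of the largest changes were in genes not yet described. Aldh1a3, which makes retinoic acid, read 9.12, 9.19 and 9.94 in preSC and 5.18 and 7.38 in C-Myc and fell by 3.14 (SE 0.61, adjusted p = 0.0126), and Crabp1, which binds retinoic acid, read 8.67, 8.12 and 6.43 against 4.47 and 4.63 and fell by 3.19 (SE 0.58, adjusted p = 0.0103). The second probe set of Aldh1a3 differed by -0.74 (adjusted p = 0.0599). Egfl6, a secreted matrix protein, fell by 4.21 (SE 1.15, adjusted p = 0.0373), which passed in 1 of 5 fits that left out an array. For Egfl6, preSC 3 at 6.18 was well below preSC 1 and 2 at 9.20 and 9.82. Smoc2, another matrix protein, read 8.82, 8.62 and 8.67 in preSC, 6.57 in C-Myc 1 and 4.85 in C-Myc 2 and fell by 2.99 (SE 0.43, adjusted p = 0.00518).

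Among the rises, Smn1, the survival motor neuron protein that assembles splicing particles, read 6.93, 6.81 and 6.85 in preSC and 10.22 and 9.27 in C-Myc and rose by 2.88 (SE 0.26, adjusted p = 0.00209). Mtm1, a phosphoinositide phosphatase, read 9.22, 9.04 and 9.84 against 12.16 and 12.15 and rose by 2.79 (SE 0.42, adjusted p = 0.00622). Psmb7, a catalytic subunit of the proteasome, read 10.63, 9.93 and 9.99 against 13.03 and 12.87 and rose by 2.77 (SE 0.22, adjusted p = 0.00131). For these genes every transduced array of the series was above every preSC array.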
